A study of Mus musculus with 12 samples.

Results

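The endothelial and vascular set comprised 35 genes, taken by symbol from the deposited count table of 39017 genes: the junction, receptor, transcription factor, guidance and capillary genes by which endothelial cells are usually recognized, with *Prox1*, *Flt4* and *Lyve1*, which also mark lymphatic vessels. All 35 were found, all were counted in each of the 12 tumors, and all passed the filter on low counts, which kept 16527 genes. By role they were 7 junction and surface genes, 3 VEGF receptors, 4 genes of the Tie and angiopoietin system, 6 transcription factors, 5 G protein-coupled receptors and their partner, 5 genes of matrix, adhesion and guidance, 4 capillary enzymes and fenestral genes, and *Lyve1*, listed alone as a lymphatic gene.

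RNA came from the CD45-negative fraction of 12 lung tumors of 9 C57BL/6 mice, 3 tumors in each of the 4 groups labelled KP, KP_PPARaDN, KPG1 and KPG1_PPARaDN, all 26 weeks after initiation. The design was meant to cross loss of Glut1, the glucose transporter encoded by *Slc2a1*, with induction of a dominant negative PPARα, a nuclear receptor of fatty acid metabolism. All mice, those of the KP group included, carried K-rasLSL-G12D/WT, p53Fl/Fl and CCSP-rtTA, and received 6000 viral units of Lenti.TRE-PPARaD13_PGK-Cre through the trachea, so Cre was delivered by way of the airways. KPG1 and KPG1_PPARaDN mice carried Glut1Fl/Fl in addition. KP_PPARaDN and KPG1_PPARaDN mice ate food with 625 mg/kg doxycycline for 15 days and the others regular food, so diet and intended induction changed together and cannot be told apart. The reverse transactivator that answers doxycycline was driven by the club cell promoter CCSP. The 3 tumors of KP, KPG1 and KPG1_PPARaDN came from 2 mice each and those of KP_PPARaDN from 3, so p-values measure the spread between tumors, some of them from the same mouse.

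Endothelial cells line blood and lymph vessels and hold them closed with VE-cadherin (*Cdh5*) and claudin-5 (*Cldn5*) at their junctions. VEGF binds *Kdr* on their surface to drive sprouting, angiopoietins act through *Tek* and *Tie1* to keep vessels stable, and factors of the ETS and SOX families such as *Erg* and *Sox17* hold the endothelial program. Lung capillaries contain a general type, which carries *Gpihbp1* and *Plvap* and renews the bed, and a wide, thin type specialized for gas exchange, the aerocyte, which carries *Car4* and *Ednrb*. Lymphatic vessels depend on *Prox1* and *Flt4*. CD45 marks leukocytes, so a CD45-negative fraction holds endothelium together with tumor epithelium, fibroblasts and blood cells that lack CD45, such as red cells and platelets.

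Total counts per tumor ranged from 25263794 to 32654223, and chi-square values per degree of freedom between pairs of tumors within groups, 84.1 to 303.6, were far beyond counting noise. Group names below are those of the labels and do not state that a gene was lost or induced, because counts of the targeted genes followed the labels only in part. These counts cover the whole gene in a mixed fraction and do not measure deletion or induction in tumor cells. The paper reports that pathways related to PPARα were repressed with the construct in both genotypes, compared with tumors of mice without doxycycline. In CPM (counts scaled to a fixed library total, after TMM scaling), the lowest, median and highest values of *Slc2a1* were 35.3, 41.7 and 57.7 in KP, 108, 115 and 153 in KP_PPARaDN, 30.2, 39.9 and 64.0 in KPG1 and 23.7, 53.2 and 54.5 in KPG1_PPARaDN. Those of *Ppara* were 9.54, 10.5 and 15.7 in KP, 2.71, 64.6 and 246 in KP_PPARaDN, 7.24, 10.5 and 15.3 in KPG1 and 8.90, 17.7 and 19.2 in KPG1_PPARaDN. *Slc2a1* was lower in every KPG1_PPARaDN tumor than in any KP_PPARaDN tumor. Every KP_PPARaDN tumor was, however, also above every KP tumor, and KPG1_PPARaDN overlapped both KP and KPG1. KPG1 overlapped KP as well, so *Slc2a1* separated the genotypes on doxycycline food only. *Ppara* was at 2.71 CPM in 1 KP_PPARaDN tumor, below every KP tumor, and KPG1_PPARaDN overlapped KPG1. Leukocyte genes were still counted in this CD45-negative fraction: none of the 12 listed markers was at 0 in all tumors, and 10 were tested. The summed level of the 12 ran from 765 to 2933 CPM in KP, 410.1 to 4326 in KP_PPARaDN, 480.0 to 2100 in KPG1 and 207 to 2030 in KPG1_PPARaDN. Of the 12, 5 had a mean under 1 CPM, so the sum rests on the others and does not measure an amount of leukocytes. Genes of red cells summed to 319 to 1420 CPM over the 12 tumors.

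The tumors differed widely in how much vascular RNA they held, and they did so within every group. Summed over the 35 genes, the level was 1128, 533 and 1007 CPM in KP tumors 1, 2 and 3, and 366, 702 and 1963 CPM in KP_PPARaDN tumors 1, 2 and 3. It was 1231, 556 and 1036 CPM in the KPG1 tumors and 609.5, 454 and 724 CPM in the KPG1_PPARaDN tumors, in the same order, which is used for every gene below. KP_PPARaDN held both the highest and the lowest tumor of the study, and the ranges of the 4 groups overlapped. The means were 889 ± 314 CPM (SD, n = 3) in KP, 1010.2 ± 842 in KP_PPARaDN, 941 ± 347 in KPG1 and 596 ± 136 in KPG1_PPARaDN. The 35 genes made up 0.0366% to 0.184% of all counts of a tumor. In bulk RNA, fewer endothelial cells and less RNA per endothelial cell cannot be told apart.

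**Figure D1:**
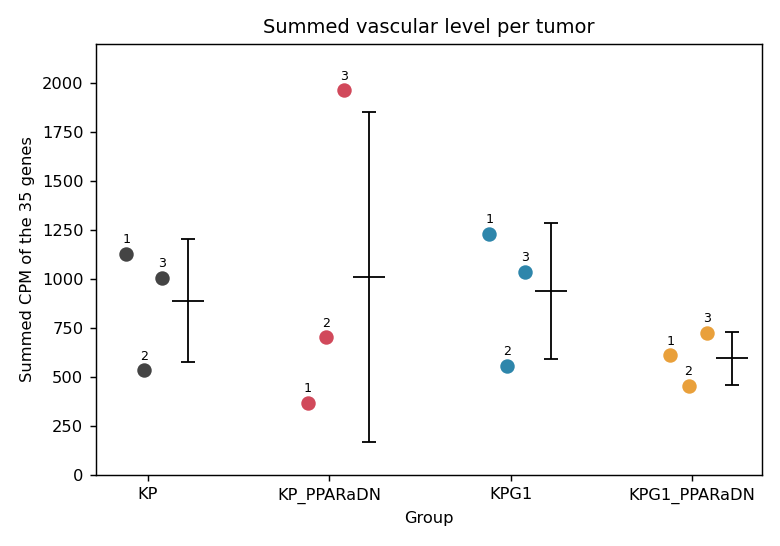
Summed CPM of the 35 genes in each of the 12 tumors by group, with the group mean and SD (n = 3). KP_PPARaDN tumor 3 lies highest at 1963 CPM and KP_PPARaDN tumor 1 lowest at 366 CPM, and the ranges of all groups overlap.

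Tumors of a single mouse also differed in their vascular RNA. KP tumors 1 and 2, which shared a mouse, differed 2.12-fold in the summed level, with 34 of 35 genes higher in tumor 1 and 22 genes at least 2-fold apart, *Prox1* being the exception. KPG1 tumors 1 and 2, also of 1 mouse, differed 2.21-fold, with 32 of 35 genes higher in tumor 1 and 30 at least 2-fold apart, while *Esam*, *Prox1* and *Car4* were lower there. KPG1_PPARaDN tumors 3 and 1, again of 1 mouse, differed 1.19-fold, with 24 of 35 genes higher in tumor 3 and 2 at least 2-fold apart. These pairs were counted for the members only, so the counts do not tell a vascular difference from one across all genes. KP tumors 1 and 2 also had the highest of the chi-square values given above, 303.6. The KPG1 and KPG1_PPARaDN pairs of 1 mouse had 113.7 and 122.9. Over all members, differences between groups made up a median of 13.3% of the variance of log2 CPM across tumors, beside 30.6% over all genes tested. This share was not adjusted for the number of groups. With 4 groups of 3 tumors it lies above 0 even where groups do not differ, so neither value measures a group effect. The median within-group SD on the log2 scale was 0.87 for the members and 0.43 for all genes.

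The genes moved as a block from tumor to tumor. KP_PPARaDN tumor 3 had the highest level of 32 of the 35 genes, where 11.5% of all genes tested were highest, and KP_PPARaDN tumor 1 had the lowest level of 24, where 10.2% of all genes were lowest. The 3 genes that peaked elsewhere were *Flt1* in KP_PPARaDN tumor 2, *Car4* in KPG1 tumor 3 and *Prox1* in KPG1_PPARaDN tumor 3. Within a group, the fold between the highest and the lowest tumor had a median of 2.32 over the 35 genes in KP, 5.99 in KP_PPARaDN, 3.04 in KPG1 and 1.53 in KPG1_PPARaDN. It exceeded 2 for 25 genes in KP, for 35 in KP_PPARaDN, for 33 in KPG1 and for 7 in KPG1_PPARaDN. The same counts were not made over all genes, whose median within-group SD on the log2 scale was 0.43, beside 0.87 for the members.

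**Figure D2:**
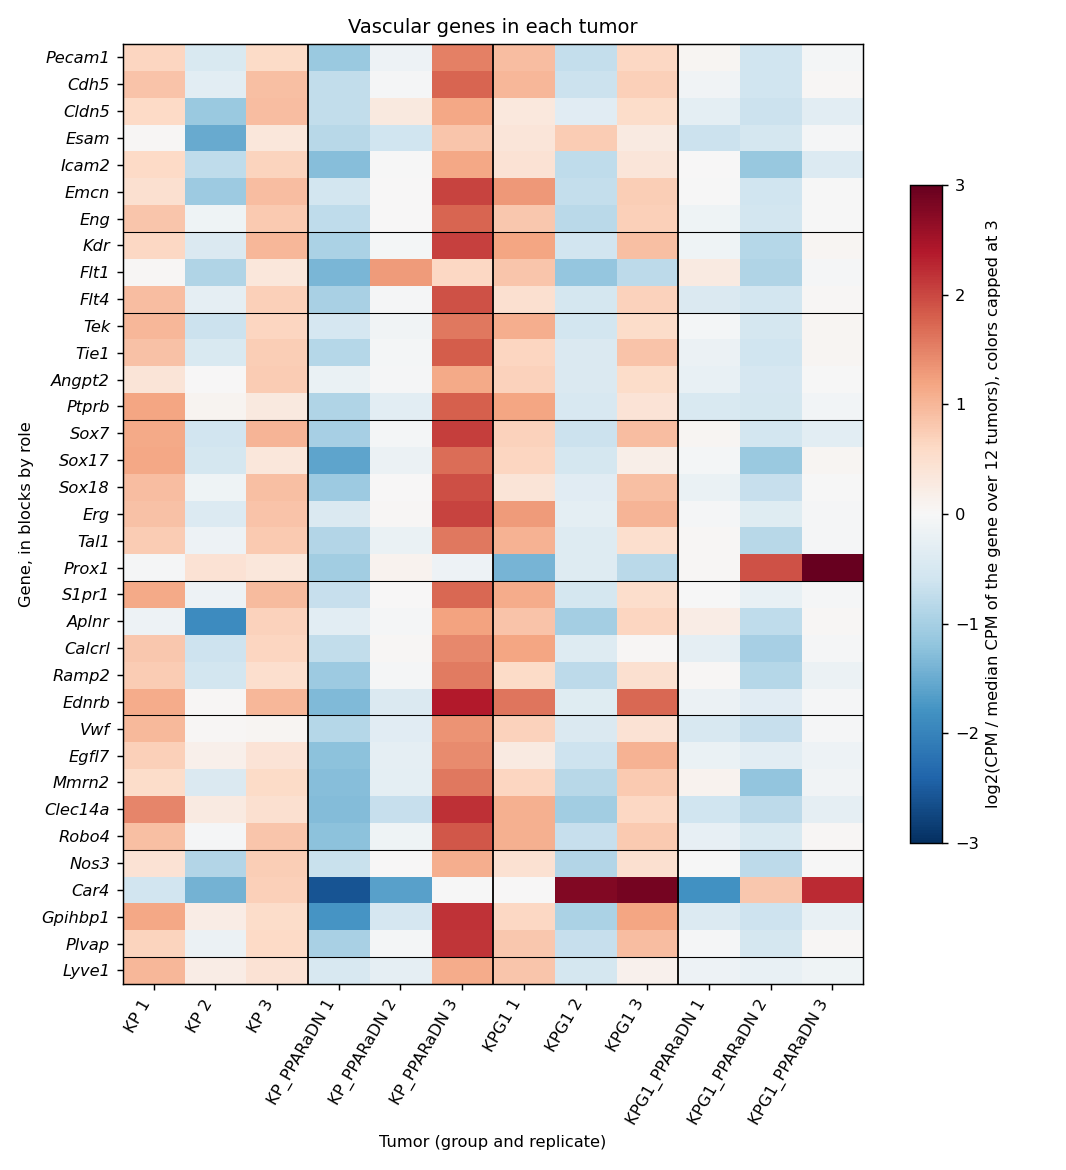
Log2 CPM of each of the 35 genes, ordered by role, in the 12 tumors, shown as the difference from the log2 of the gene's own median over the 12 tumors, with colors capped at 3. Whole columns are high (KP_PPARaDN tumor 3) or low (KP_PPARaDN tumor 1), while Car4, Prox1, Flt1 and Esam depart from their column in 1 or more tumors.

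Among the 7 junction and surface genes, *Pecam1*, the adhesion molecule CD31, stood at 87.3, 40.4 and 82.9 CPM in KP, 25.8, 49.9 and 158 in KP_PPARaDN, 105, 33.6 and 85.4 in KPG1 and 57.6, 36.9 and 53.7 in KPG1_PPARaDN. *Cdh5*, the cadherin of endothelial junctions, was at 79.6, 35.4 and 82.3 CPM in KP, 26.4, 42.9 and 148 in KP_PPARaDN, 87.6, 28.4 and 72.7 in KPG1 and 41.1, 29.4 and 45.5 in KPG1_PPARaDN. Both genes were low in the second tumor of KP, KPG1 and KPG1_PPARaDN and highest in KP_PPARaDN tumor 3, and their groups overlapped. *Cldn5*, the claudin of the tight junction, was at 7.97, 2.45 and 10.02 CPM in KP, 3.15, 6.49 and 11.8 in KP_PPARaDN, 6.60, 4.198 and 7.73 in KPG1 and 4.29, 3.36 and 4.25 in KPG1_PPARaDN. Its KPG1_PPARaDN values spanned less than those of any other group and lay inside the ranges of KP and KP_PPARaDN. *Emcn*, a sialomucin of capillaries and veins, was at 15.5, 5.21 and 21.1 CPM in KP, 7.64, 11.2 and 45.1 in KP_PPARaDN, 27.6, 6.81 and 18.5 in KPG1 and 11.1, 7.33 and 11.1 in KPG1_PPARaDN. KP tumor 2 was its lowest tumor and KP_PPARaDN tumor 3 its highest.

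*Esam* (chr9:37528078-37538319, plus strand, mm10), an adhesion molecule of endothelial junctions that platelets also carry, was the junction gene that departed from the rest. It was at 62.1, 21.4 and 77.2 CPM in KP, 33.9, 39.9 and 108 in KP_PPARaDN, 78.4, 103 and 73.5 in KPG1 and 38.9, 42.1 and 59.2 in KPG1_PPARaDN. In KPG1 tumor 2, where *Pecam1*, *Cdh5* and *Emcn* were low, *Esam* was at the highest level of its group, and no KPG1_PPARaDN tumor reached the lowest KPG1 tumor. The remaining junction and surface genes, the integrin ligand *Icam2* and the TGFβ co-receptor *Eng*, ranged from 2.06 to 11.1 CPM and from 13.4 to 79.0 CPM over the 12 tumors.

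Of the VEGF receptors, *Kdr* (VEGFR2), the main signaling receptor of sprouting, was at 44.7, 21.5 and 57.9 CPM in KP, 15.1, 27.9 and 121 in KP_PPARaDN, 66.2, 19.6 and 54.2 in KPG1 and 26.4, 16.0 and 30.3 in KPG1_PPARaDN. It was high and low in the same tumors as *Cdh5*, over a span of 8.03-fold. *Flt1* (VEGFR1), which binds VEGF and in its soluble form withholds it from *Kdr*, was at 68.2, 35.6 and 84.6 CPM in KP, 25.8, 162 and 102 in KP_PPARaDN, 117, 29.8 and 38.2 in KPG1 and 79.5, 35.2 and 64.5 in KPG1_PPARaDN. *Flt1* was thus highest in KP_PPARaDN tumor 2, a tumor in the middle of the order for the other members. *Flt4* (VEGFR3), the receptor of lymphatic and of sprouting endothelium, ranged from 3.15 to 23.4 CPM with its peak in KP_PPARaDN tumor 3. Their ligand *Vegfa*, outside the 35 genes, ranged from 254 to 716 CPM and was highest in KP tumor 1.

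In the Tie and angiopoietin system, *Tek* (TIE2), the angiopoietin receptor, was at 20.9, 6.67 and 16.2 CPM in KP, 7.37, 9.65 and 31.4 in KP_PPARaDN, 22.2, 7.12 and 15.4 in KPG1 and 10.1, 7.20 and 10.8 in KPG1_PPARaDN. The lowest tumor was KP tumor 2, with KPG1 tumor 2, KPG1_PPARaDN tumor 2 and KP_PPARaDN tumor 1 close to it. Its partner receptor *Tie1* ranged from 11.6 to 74.6 CPM, and *Ptprb*, the phosphatase that removes phosphate from *Tek*, from 26.2 to 171 CPM. *Angpt2*, the ligand that loosens vessels, had one of the narrowest spans of the set, 4.13 to 12.9 CPM or 3.12-fold.

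Among the transcription factors, *Erg*, an ETS factor of endothelial identity, was at 10.6, 4.36 and 10.5 CPM in KP, 4.28, 5.94 and 23.5 in KP_PPARaDN, 14.03, 4.71 and 11.9 in KPG1 and 5.69, 4.54 and 5.69 in KPG1_PPARaDN. *Sox7*, one of the SOXF factors of vascular development, was at 7.97, 2.45 and 7.38 CPM in KP, 1.82, 3.48 and 15.3 in KP_PPARaDN, 5.88, 2.34 and 6.97 in KPG1 and 3.82, 2.496 and 2.92 in KPG1_PPARaDN. For both, KP_PPARaDN tumor 3 was more than the other 2 tumors of its group together, and the 3 KPG1_PPARaDN tumors lay close to the low tumors of the other groups. The other SOXF factors, *Sox17* and *Sox18*, ranged from 0.514 to 4.92 and from 1.44 to 11.7 CPM, and *Tal1*, a factor of blood and endothelial progenitors, from 0.856 to 4.79 CPM.

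*Prox1*, the factor that sets lymphatic identity (chr1:190118035-190170714, minus strand, mm10), was rare in most tumors and abundant in 1. It was at 0.616, 0.848 and 0.800 CPM in KP, 0.308, 0.678 and 0.569 in KP_PPARaDN, 0.240, 0.482 and 0.363 in KPG1 and 0.648, 2.37 and 23.7 in KPG1_PPARaDN. A single tumor thus held 23.7 CPM while 10 of the 12 were under 1 CPM. In that tumor, KPG1_PPARaDN tumor 3, *Lyve1* was at 12.9 CPM, rank 7 of 12, *Flt4* at 6.37 CPM, rank 6, and *Pdpn* at 48.1 CPM, rank 9. The lymphatic genes *Mmrn1* and *Reln* were at 0.492 and 0.277 CPM there, both rank 10, and *Ccl21a* was at 0 in all tumors. None of these lymphatic genes was high in the tumor rich in *Prox1*.

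Among the G protein-coupled receptors, *Calcrl* forms the adrenomedullin receptor with its partner *Ramp2*. *Calcrl* ranged from 11.5 to 62.0 CPM, *Ramp2* from 2.84 to 17.9 CPM, and *S1pr1*, the sphingosine-1-phosphate receptor that tightens junctions, from 6.34 to 33.7 CPM. *Aplnr*, the apelin receptor of veins and sprouting capillaries, was at 19.8, 5.94 and 35.5 CPM in KP, 17.7, 21.5 and 51.0 in KP_PPARaDN, 40.1, 10.9 and 34.6 in KPG1 and 26.0, 12.96 and 22.7 in KPG1_PPARaDN. Its lowest tumor was KP tumor 2, and KP_PPARaDN tumor 1, lowest for most members, had 17.7 CPM. *Ednrb*, an endothelin receptor of aerocytes, was at 8.59, 4.06 and 7.86 CPM in KP, 1.58, 2.94 and 20.6 in KP_PPARaDN, 11.99, 3.06 and 13.05 in KPG1 and 3.51, 3.14 and 3.85 in KPG1_PPARaDN. It had one of the wider spans, 13.1-fold, and its KPG1_PPARaDN tumors lay between the low and the high tumors of KPG1.

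Of the matrix, adhesion and guidance genes, *Vwf*, the clotting factor stored in endothelial granules, ranged from 54.2 to 248 CPM. *Clec14a*, a C-type lectin of tumor vessels, was at 21.2, 9.27 and 10.8 CPM in KP, 3.12, 4.74 and 35.3 in KP_PPARaDN, 16.1, 3.72 and 11.9 in KPG1 and 5.11, 4.48 and 6.40 in KPG1_PPARaDN. KP_PPARaDN tumors 1 and 2 lay below every KP tumor, and tumor 3 lay above all of them. *Egfl7*, a secreted matrix protein, ranged from 9.76 to 61.1 CPM, *Mmrn2*, a matrix ligand of *Clec14a*, from 4.90 to 35.4 CPM, and *Robo4*, an endothelial guidance receptor, from 5.07 to 43.0 CPM.

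Among the capillary genes, 1 departed from the rest. *Car4*, a carbonic anhydrase on the surface of aerocytes (chr11:84957786-84966044, plus strand, mm10), was at 5.54, 3.09 and 13.5 CPM in KP, 1.37, 2.68 and 8.203 in KP_PPARaDN, 8.28, 56.2 and 60.7 in KPG1 and 2.35, 14.5 and 38.7 in KPG1_PPARaDN. The 4 tumors with the most *Car4* all carried Glut1Fl/Fl, and 1 tumor of each such group lay within the range of the Glut1 wild-type groups, whose highest tumor, KP tumor 3, came close to the lowest of the 4. In KPG1 tumor 2, with 56.2 CPM of *Car4*, the other genes of the aerocyte list were in the middle or low. *Fibin* was at rank 7 of 12, *Ednrb* (3.06 CPM) and *Kdr* (19.6 CPM) at rank 10, *Chst1* and *Sirpa* at rank 11, and *Tbx2* (1.03 CPM) and *Apln* (15.9 CPM) at rank 12. *Gpihbp1*, the anchor of lipoprotein lipase on capillaries, was at 20.0, 10.3 and 12.98 CPM in KP, 2.60, 6.29 and 39.7 in KP_PPARaDN, 13.6, 4.61 and 20.2 in KPG1 and 6.65, 5.76 and 7.66 in KPG1_PPARaDN. As for *Clec14a*, KP_PPARaDN tumors 1 and 2 lay below all KP tumors and tumor 3 above them. *Plvap*, of the diaphragms of fenestrae, ranged from 12.1 to 104 CPM, and *Nos3*, the endothelial nitric oxide synthase, from 3.73 to 14.7 CPM. *Lyve1*, a hyaluronan receptor of lymphatic endothelium and some macrophages, was at 28.1, 16.3 and 19.1 CPM in KP, 10.1, 11.7 and 30.4 in KP_PPARaDN, 25.1, 9.77 and 15.3 in KPG1 and 12.5, 11.9 and 12.9 in KPG1_PPARaDN. It had the narrowest span of the set, 3.11-fold.

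Compared per exon length, in TPM (counts divided by exon length and scaled to a fixed total) as mean ± SD over the 12 tumors, *Esam* led with 72.1 ± 28.1, followed by *Plvap* with 56.9 ± 39.7, *Cdh5* with 48.6 ± 27.2 and *Pecam1* with 37.3 ± 19.5. The means of neighbors in this order lay within 1 SD of each other. The receptors *Tie1*, *Flt1* and *Kdr* followed at 19.4, 17.9 and 15.7 TPM. The lowest were *Flt4* with 3.37 ± 2.14, *Tal1* with 1.60 ± 0.85, *Sox17* with 1.32 ± 0.84 and *Prox1* with 1.09 ± 2.73 TPM. *Car4* was at 30.0 ± 34.7 TPM, and its rank among the members of a tumor ran from 1 to 29.

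To see how the genes varied relative to shared endothelial RNA, each was divided by the summed CPM of 6 defining markers (*Pecam1*, *Cdh5*, *Kdr*, *Tek*, *Cldn5* and *Erg*) and multiplied by 100. For the 29 genes that are not among these markers, the coefficient of variation over the 12 tumors had a median of 61.1% as a level and of 17.7% as a ratio, and 26 of the 29 varied less as a ratio. Over all genes tested the order was the opposite, 31.4% as a level and 59.7% as a ratio, and 7.13% varied less as a ratio. Division by a variable sum adds variation to any gene that does not follow it. The ratio was steadiest for *Tie1*, *Eng* and *Ramp2* among genes outside the markers, with coefficients of 9.37%, 9.59% and 10.1%.

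The genes with the most variable ratio were *Esam*, *Flt1*, *Car4* and *Prox1*. The ratio of *Esam* was 19.3 to 43.3 in 11 tumors and 105 in KPG1 tumor 2. That of *Flt1* had its peak, 113, in KP_PPARaDN tumor 2. For *Car4* the ratio was 57.6 and 24.6 in KPG1 tumors 2 and 3 and 14.9 and 25.8 in KPG1_PPARaDN tumors 2 and 3, beside 1.62 to 5.19 in the other 8 tumors. For *Prox1* it was 15.8 in KPG1_PPARaDN tumor 3 and 2.43 in KPG1_PPARaDN tumor 2, and at most 0.765 elsewhere.

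Covariation with *Cdh5* was then tested across all genes within the groups, in an edgeR quasi-likelihood fit with 1 coefficient per group and the log2 CPM of *Cdh5* as a covariate, a test added after the data had been seen. Of the 34 other members, 28 rose with *Cdh5* at an adjusted p under 0.05, beside 0.859% of all genes tested (142 of 16526). The median slope, in log2 units of the gene per log2 unit of *Cdh5*, was 0.98 for the members and -0.02 for all genes, and all 34 slopes were above 0. The fit rests on the spread of *Cdh5* within KP_PPARaDN: without KP_PPARaDN tumor 3, 0 members were called (edgeR, beside 1 of 16938 genes, 0.0059%), although their median slope was 0.96 and 31 of the 34 had an unadjusted p under 0.05, beside 4.32% of all genes. Without KP_PPARaDN tumor 1, 12 members were called, beside 0.242% of all genes (41 of 16948). Without any other single tumor 21 to 26 were called, beside 0.519% to 0.745% of all genes.

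Several of the members called had slopes near 1. Slopes were 1.16 ± 0.08 (SE; edgeR adjusted p = 0.000309) for *Kdr*, 1.00 ± 0.08 (adjusted p = 0.000469) for *Pecam1*, 0.97 ± 0.08 (adjusted p = 0.000752) for *Eng* and 0.99 ± 0.10 (adjusted p = 0.00135) for *Tie1*. *Erg* had a slope of 0.99 ± 0.11 (adjusted p = 0.00248), and *Ednrb* had the steepest, 1.32 ± 0.16 (adjusted p = 0.00319). *Vwf* with 0.77 ± 0.12 (adjusted p = 0.0154) and *Lyve1* with 0.63 ± 0.12 (adjusted p = 0.0406) were the shallowest of those called. The 6 members not called were *Angpt2* at 0.59 ± 0.12 (adjusted p = 0.0586), *Cldn5* at 0.77 ± 0.18 (adjusted p = 0.105), *Esam* at 0.53 ± 0.19 (adjusted p = 0.445), *Flt1* at 0.75 ± 0.32 (adjusted p = 0.556), *Car4* at 0.65 ± 0.49 (adjusted p = 0.745) and *Prox1* at 0.13 ± 0.53 (adjusted p = 0.962).

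**Figure D3:**
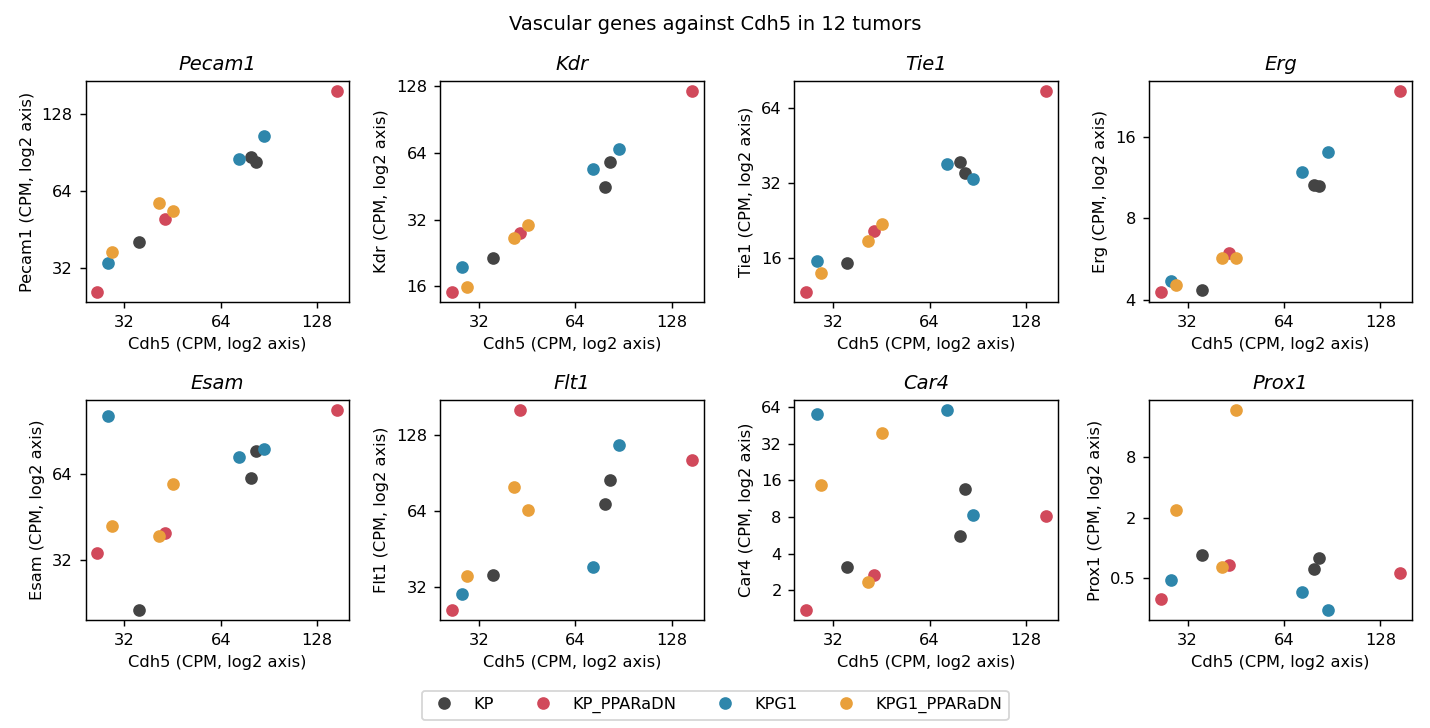
CPM of Pecam1, Kdr, Tie1, Erg, Esam, Flt1, Car4 and Prox1 (vertical axes, log2 scales) against CPM of Cdh5 (horizontal axes, log2 scales), 1 point per tumor colored by group. Pecam1, Kdr, Tie1 and Erg lie along a line, whereas Esam has 1 tumor far above the others at its Cdh5 level (103 CPM, KPG1 tumor 2) and Flt1, Car4 and Prox1 scatter.

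**Figure D4:**
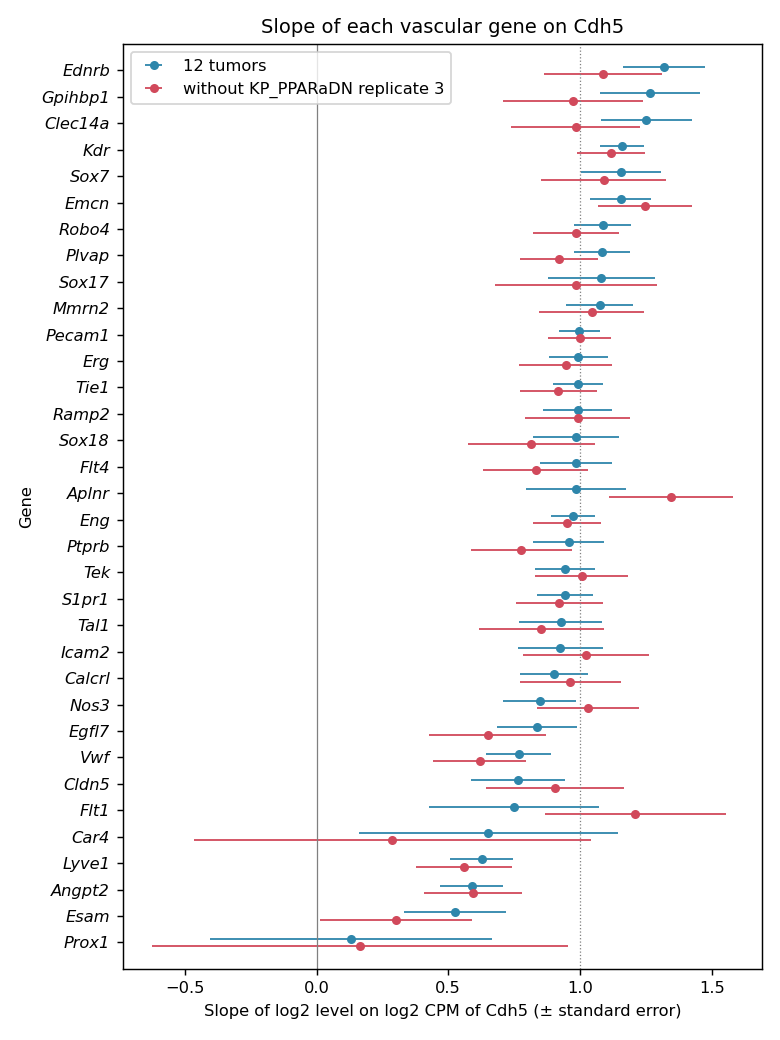
Slope of the log2 level on the log2 CPM of Cdh5 within groups (points, with SE bars) for the 34 other members, over 12 tumors and without KP_PPARaDN tumor 3. Most points lie near 1 in both, Ednrb is highest at 1.32 over 12 tumors, and Car4 and Prox1 have the widest errors.

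Over the 12 tumors, the same fit called other endothelial genes and none of the listed genes of other cell types, beside 0.859% of all genes rising. Without KP_PPARaDN tumor 3 only 1 of 16938 genes was called, so the calls below rest on that tumor too. Among other endothelial receptors and signaling genes, 8 of 26 rose with *Cdh5* (*Cd34*, *Cd93*, *Adgrl4*, *Mcam*, *Notch4*, *Arhgef15*, *Thbd* and *Acvrl1*), and among other endothelial transcription factors 6 of 18 (*Mef2c*, *Hey1*, *Bcl6b*, *Fli1*, *Foxf1* and *Lmo2*). Of the tip cell genes outside the 35, *Cxcr4* and *Esm1* rose, 2 of 8, and of the general capillary genes *Cd93* and *Kit*, 2 of 4. Of 7 arterial genes *Hey1* rose, and of 5 aerocyte, 6 venous and 3 lymphatic genes none was called. None of the 18 vascular ligands, 12 pericyte and smooth muscle genes, 9 fibroblast genes, 10 leukocyte genes, 10 alveolar type 2 genes or 8 alveolar type 1 genes was called, with median slopes of 0.18, 0.56, 0.33, 0.42, 0.39 and 0.59. The same held for the 3 mesothelial, 3 megakaryocyte, 6 erythroid, 5 airway and 8 epithelial genes tested. Median slopes of the aerocyte, venous and lymphatic genes were 0.60, 0.29 and 0.17. The lack of a call in such short lists thus does not tell other cell types from endothelium. The genes with the smallest p-values outside all lists were *Pcdh17*, with a slope of 1.26 ± 0.11 (edgeR adjusted p = 0.000752), *Sparcl1*, with 1.07 ± 0.10 (adjusted p = 0.00132), and *Fgd5*, with 1.00 ± 0.10 (adjusted p = 0.00135), all named after their values were seen.

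Promoter sequences were compared because the members varied together, and 17 of the 35 had an entry in the RefSeq promoter table (GRCm38.p6), with 23 promoters in all. The 250 bases before each start were searched on both strands for the core letters bound by 4 families of factors. The ETS core was CNGGAAG, which reads CTTCCNG on the other strand. The core of GATA factors was AGATAA (reverse TTATCT), that of SOX factors ACAATNG (reverse CNATTGT) and that of FOX factors GTAAACA (reverse TGTTTAC). The ETS letters stood in 15 of the 23 promoters (65.2%), of 13 genes, beside 26.6% of all 32851 promoters of that length. The GATA letters stood in 2 (8.70%, beside 9.99%), the SOX letters in 3 (13.04%, beside 6.91%) and the FOX letters in 0 (beside 3.17%). Several promoters belong to the same gene, and a match describes letters, not a bound site. The promoters of 4 genes are shown, with ETS matches in capitals: *Tie1* and *Robo4*, whose levels followed *Cdh5*, and *Flt1* and *Car4*, whose levels departed from it. They lie at chr4:118489850-118490099 on the minus strand (*Tie1*), chr9:37401722-37401971 on the plus strand (*Robo4*), chr5:147726012-147726261 on the minus strand (*Flt1*) and chr11:84957504-84957753 on the plus strand (*Car4*).
Tie1: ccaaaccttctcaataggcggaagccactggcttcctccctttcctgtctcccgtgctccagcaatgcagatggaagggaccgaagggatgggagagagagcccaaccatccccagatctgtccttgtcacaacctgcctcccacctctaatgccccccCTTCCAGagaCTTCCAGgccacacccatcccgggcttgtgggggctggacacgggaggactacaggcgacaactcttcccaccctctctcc
Robo4: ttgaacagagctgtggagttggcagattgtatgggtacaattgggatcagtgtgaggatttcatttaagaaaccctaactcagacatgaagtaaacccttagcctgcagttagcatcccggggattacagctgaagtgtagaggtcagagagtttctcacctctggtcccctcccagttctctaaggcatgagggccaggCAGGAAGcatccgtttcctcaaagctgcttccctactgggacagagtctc
Flt1: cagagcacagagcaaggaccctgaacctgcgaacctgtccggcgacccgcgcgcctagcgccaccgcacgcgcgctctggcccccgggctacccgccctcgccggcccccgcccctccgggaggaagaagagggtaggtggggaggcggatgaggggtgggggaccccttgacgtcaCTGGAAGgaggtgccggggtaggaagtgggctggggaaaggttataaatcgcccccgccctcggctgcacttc
Car4: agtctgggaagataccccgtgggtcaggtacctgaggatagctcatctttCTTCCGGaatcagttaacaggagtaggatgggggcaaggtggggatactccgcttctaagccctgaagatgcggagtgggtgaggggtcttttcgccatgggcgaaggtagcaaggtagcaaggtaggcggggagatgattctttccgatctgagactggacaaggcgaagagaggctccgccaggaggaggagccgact
*Tie1* has 2 matches, 91 and 81 bases before the start, *Robo4* has 1 at 50 bases together with 1 SOX match, *Flt1* has 1 at 73 bases and *Car4* has 1 at 200 bases. Members that followed *Cdh5* and members that departed from it thus both held the ETS letters, and none was found in this window for *Kdr*, *Eng*, *Cldn5* and *Tek*.

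The comparison of KP_PPARaDN with KP was designed to ask what PPARaDN changes in tumors with Glut1. In it, 28 of the 35 fold changes were above 0 and 7 below, beside 49.2% and 50.8% of all genes, with a median log2 fold change of 0.14 for the members and -0.01 for all genes. By edgeR, 0 members had an adjusted p under 0.05 (0.00605% of all genes), and 0 had an unadjusted p under 0.05 (5.32% of all genes higher, 6.03% lower). DESeq2 and limma voom called 0 as well, beside 2.31% of genes with DESeq2 and 0.00605% with limma voom. No member was free of overlap between the groups, beside 6.55% of all genes higher and 6.7% lower. The KP mice were all female, while KP_PPARaDN tumors 1 and 3, the lowest and the highest, came from males and tumor 2 from a female. Sex and group are thus largely confounded in this comparison.

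The largest differences on the higher side were *Flt1*, with a log2 fold change of 0.62 ± 0.65 (SE, edgeR adjusted p = 0.789), *Emcn*, with 0.61 ± 0.70 (adjusted p = 0.811), and *Aplnr*, with 0.56 ± 0.64 (adjusted p = 0.811). Below 0 lay *Car4*, with -0.85 ± 1.00 (adjusted p = 0.816), *Prox1*, with -0.54 ± 0.98 (adjusted p = 0.894), and *Lyve1*, with -0.28 ± 0.44 (adjusted p = 0.871). All 3 VEGF receptors had values above 0, from 0.27 to 0.62, as had all 4 Tie and angiopoietin genes, from 0.01 to 0.26. The direction of the set rested on KP_PPARaDN tumor 3. Without it, 34 of 35 fold changes were below 0, the median was -0.92, and 8 members (*Clec14a*, *Ednrb*, *Egfl7*, *Gpihbp1*, *Lyve1*, *Ptprb*, *Robo4* and *Vwf*) were lower at an unadjusted p under 0.05, beside 7.08% of all genes. Without KP tumor 2 the median was -0.16, with 28 of 35 below 0, and over all 12 tumors it was -0.16 with limma voom and -0.02 with sex as a covariate. Removing the highest tumor of a group lowers that group by construction, and 0 members then passed adjustment (edgeR, 0% of all genes without KP_PPARaDN tumor 3).

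Under the same food in Glut1Fl/Fl mice, fitted values were below 0 across nearly the whole set, and none of them passed the test; *Ppara* overlapped between these groups. In KPG1_PPARaDN against KPG1, 34 of 35 fold changes were below 0, beside 47.8% of all genes, and the median was -0.67, beside 0.02 for all genes. No member was called by edgeR (0.00605% of all genes), and 1 had an unadjusted p under 0.05, *Prox1* on the higher side (6.25% of all genes higher, 4.5% lower). *Esam* was the only member whose groups did not overlap on the lower side (9.41% of all genes), at -0.86 ± 0.49 (edgeR adjusted p = 0.546), and *Prox1* the only one on the higher side (11.2%). The members furthest below 0 were *Ednrb* at -1.42 ± 0.83 (adjusted p = 0.557), *Car4* at -1.17 ± 0.99 (adjusted p = 0.694) and *Clec14a* at -0.98 ± 0.81 (adjusted p = 0.688). Medians were -0.64 for the junction genes, -0.59 for the VEGF receptors, -0.67 for the Tie and angiopoietin genes and -0.68 for the matrix genes, close to each other. *Prox1*, *Ednrb* and *Car4* belong to other roles, whose medians are not given here. The median of the set stayed below 0 without any 1 tumor, from -0.98 to -0.39, although leaving out 1 tumor can leave another of the same mouse in place. The KPG1 mice were all male, while KPG1_PPARaDN tumors 1 and 3 came from 1 female mouse, so sex and group are largely confounded here. With sex as a covariate the median was -0.49. Alveolar type 2 and type 1 genes were lower in the same comparison, 10 of 10 and 8 of 8 below 0, with medians of -0.89 and -0.84, and their part in the result was not tested.

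*Prox1* stood at a log2 fold change of 4.60 ± 1.09 in this comparison (edgeR adjusted p = 0.42). DESeq2 called it (adjusted p = 0.00108), beside 0.798% of genes called higher, and limma voom did not. Without KPG1_PPARaDN tumor 3 the edgeR value was 2.04, with an adjusted p of 0.548.

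**Figure D5:**
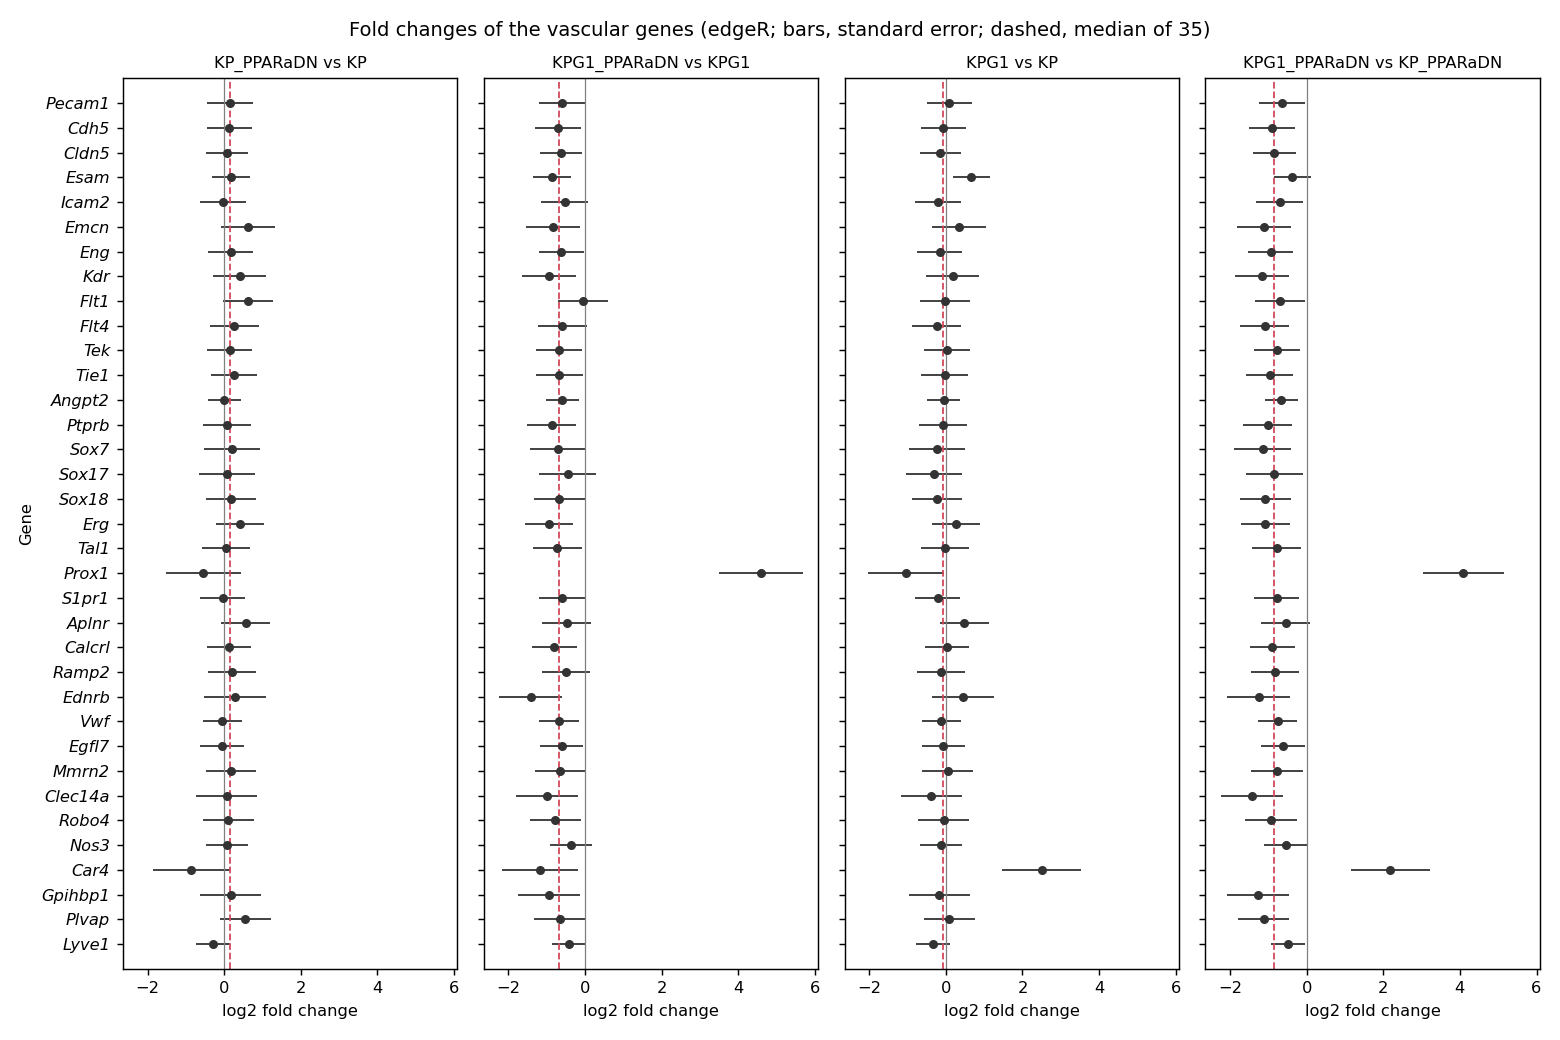
Log2 fold changes with SE (edgeR) of the 35 genes in the 4 comparisons of 2 groups, ordered by role. Most genes lie near 0 in the comparison of KPG1 with KP and below 0 in both comparisons of KPG1_PPARaDN. Prox1 stands apart above 0 in both comparisons of KPG1_PPARaDN. Car4 stands apart above 0 in KPG1 against KP and in KPG1_PPARaDN against KP_PPARaDN, but lies below 0 with the others in KPG1_PPARaDN against KPG1.

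The comparison of KPG1 with KP was designed to ask what loss of Glut1 changes on regular food, although *Slc2a1* overlapped between these groups, and the members lay on both sides of 0. In it, 12 fold changes were above 0 and 23 below, beside 46.9% and 53.1% of all genes, and the median was -0.06 for the members and -0.03 for all genes. By edgeR 0 members were called (0.0363% of all genes), as by DESeq2 (0.323%) and limma voom (0.0303%), and *Car4* alone had an unadjusted p under 0.05 (2.42% of all genes higher, 3.81% lower). *Car4* was at 2.501 ± 1.03 (edgeR adjusted p = 0.787), *Esam* at 0.66 ± 0.49 (adjusted p = 0.835) and *Aplnr* at 0.49 ± 0.64 (adjusted p = 0.909). On the lower side were *Prox1* at -1.05 ± 1.00 (adjusted p = 0.867), *Clec14a* at -0.38 ± 0.80 (adjusted p = 0.952) and *Lyve1* at -0.34 ± 0.44 (adjusted p = 0.908). *Prox1* was the only member whose groups did not overlap, on the lower side (5.12% of all genes, and 4.82% on the higher side). It was under 1 CPM in every tumor of both groups, so this difference and its fold change rest on low counts. The KP mice here were all female and the KPG1 mice all male, so sex and genotype cannot be told apart here. With sex as a covariate, estimated from the other groups, *Car4* was at 2.35 and *Prox1* at 0.49, and leaving out any 1 tumor gave 2.13 to 3.28 for *Car4* and -0.33 to 0.28 for the median of the set.

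With doxycycline food on both sides, the difference between genotypes again rested on the KP_PPARaDN tumors, which this comparison shares with the first. Between KPG1_PPARaDN and KP_PPARaDN, 33 of 35 fold changes were below 0, beside 49.5% of all genes, and the median was -0.85, beside 0.01. By edgeR 0 members were called (0.0303% of all genes), and *Prox1* alone had an unadjusted p under 0.05 (5.25% of all genes higher, 4.44% lower), at 4.09 ± 1.06 (edgeR adjusted p = 0.462), with DESeq2 calling it (adjusted p = 0.00428, beside 0.728% of genes higher) and limma voom not. *Car4* was at 2.18 ± 1.03 (edgeR adjusted p = 0.519), *Clec14a* at -1.43 ± 0.82 (adjusted p = 0.577), *Gpihbp1* at -1.27 ± 0.82 (adjusted p = 0.616) and *Ednrb* at -1.26 ± 0.83 (adjusted p = 0.623). No member was free of overlap (10.3% of all genes higher, 7.25% lower). Sex was mixed on both sides but unequal: KPG1_PPARaDN tumor 2 and KP_PPARaDN tumors 1 and 3 were from males, the others from females. With sex as a covariate the median was -0.81. Without KPG1_PPARaDN tumor 3, *Prox1* was at 1.53 and *Car4* at 1.05. Without KP_PPARaDN tumor 3 the median was 0.19, with 31 of 35 above 0. Without KP_PPARaDN tumor 1 it was -1.25, with 16 members lower at an unadjusted p under 0.05 (3.92% of all genes), and 0 called after adjustment (edgeR, 0.0236% of all genes, lowest adjusted p of a member 0.621).

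Averaged over both genotypes, doxycycline food against regular food gave 32 of 35 values below 0, beside 48.9% of all genes, with a median of -0.27, beside 0.01. The edgeR test called 0 members (0.0182% of all genes), as by DESeq2 (1.74%) and limma voom (0.0182%), and *Prox1* alone had an unadjusted p under 0.05 (5.14% of all genes higher, 4.91% lower), at 2.03 ± 0.71 (edgeR adjusted p = 0.383). *Car4* was at -1.01 ± 0.70 (adjusted p = 0.676), *Ednrb* at -0.56 ± 0.58 (adjusted p = 0.802), *Clec14a* at -0.46 ± 0.57 (adjusted p = 0.845), *Flt1* at 0.28 ± 0.46 (adjusted p = 0.885) and *Aplnr* at 0.04 ± 0.45 (adjusted p = 0.987). Without KPG1_PPARaDN tumor 3, *Prox1* was at 0.75. Without KP_PPARaDN tumor 3, 33 of 35 values were below 0, the median was -0.78, and 21 members, among them *Pecam1*, *Cdh5*, *Kdr*, *Erg* and *Tie1*, were lower at an unadjusted p under 0.05, beside 7.8% of all genes. None of them passed adjustment (edgeR, 0.0767% of all genes, lowest adjusted p of a member 0.178), and since the members move together from tumor to tumor they are not separate tests.

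Averaged over both diets, *Slc2a1* fl/fl against wt/wt gave 32 of 35 values below 0, beside 52.2% of all genes, with a median of -0.44, beside -0.01. Again 0 members were called by edgeR (0.0484% of all genes), as by DESeq2 (0.237%) and limma voom (0.0484%). *Car4* alone had an unadjusted p under 0.05 (2.15% of all genes higher, 2.37% lower), at 2.34 ± 0.73 (edgeR adjusted p = 0.976), and at 1.77 without KPG1_PPARaDN tumor 3. *Prox1* was at 1.52 ± 0.70, *Esam* at 0.14 ± 0.34, *Clec14a* at -0.91 ± 0.57, *Gpihbp1* at -0.72 ± 0.57 and *Sox7* at -0.69 ± 0.52. Without KP_PPARaDN tumor 3 the median was 0.07. Leukocyte genes had 10 of 10 values below 0 in the same comparison, with a median of -0.81, and their part in the result was not tested.

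The difference of the PPARaDN effect between genotypes had 34 of 35 values below 0, beside 48.3% of all genes, with a median of -0.83, beside 0.03, and a median of 0.29 without KP_PPARaDN tumor 3. By edgeR 0 members were called (0.0% of all genes), limma voom called 0, DESeq2 called *Prox1* (adjusted p = 0.0173, beside 1.37% of genes higher), and *Prox1* alone had an unadjusted p under 0.05 by edgeR (6.87% of all genes higher, 4.94% lower).

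When the log2 CPM of *Cdh5* was added to the fit as a covariate, an alternative chosen after the data had been seen, the members' medians moved to between -0.01 and 0.04 in all 7 comparisons. *Cdh5* is itself a member, and the others had a median slope of 0.98 on it. The adjustment therefore takes out a shift that the members share, and medians near 0 are not a separate result about the groups. *Prox1* in KPG1_PPARaDN against KPG1 was then at 4.63 ± 1.15 (edgeR adjusted p = 0.554), *Esam* in KPG1 against KP at 0.94 ± 0.41 (adjusted p = 0.745), and *Car4* at 2.92 ± 1.06 in KPG1 against KP (adjusted p = 0.745) and 2.87 ± 0.81 averaged over diets (adjusted p = 0.903). These 4 values had the same sign as without the covariate. In KPG1_PPARaDN against KP_PPARaDN, *Ednrb*, *Gpihbp1*, *Esam* and *Clec14a* were among the members whose sign changed, to 0.31, 0.27, 0.086 and 0.042.

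Other vascular genes, from lists outside the 35, were compared in the same way. For the 26 other endothelial receptors and signaling genes the median log2 fold change was 0.18 in KP_PPARaDN against KP, -0.59 in KPG1_PPARaDN against KPG1, -0.04 in KPG1 against KP and -0.85 in KPG1_PPARaDN against KP_PPARaDN, with 0 called by edgeR in each. For the 18 other endothelial transcription factors it was 0.13, -0.64, -0.03 and -0.85 in the same order, again with 0 called. The 18 vascular ligands were at 0.46, -0.23, -0.07 and -0.58, with 0 called and 14 of 18 above 0 in KP_PPARaDN against KP (49.2% of all genes), of which 3 had an unadjusted p under 0.05 (5.32% of all genes higher). The 12 pericyte and smooth muscle genes, which mark the cells that wrap vessels, were at 0.03, -0.41, -0.03 and -0.45. Their summed level was 75.2 to 226 CPM in KP, 130 to 167 in KP_PPARaDN, 82.1 to 193 in KPG1 and 106 to 383 in KPG1_PPARaDN, highest in KPG1_PPARaDN tumor 1 rather than in the tumor richest in endothelial RNA. KP_PPARaDN tumor 3 also had the highest summed level of the leukocyte genes, at 4326 CPM, of the alveolar type 1 genes, at 3656 CPM, and of the mesothelial genes, at 294.5 CPM. Mesothelial genes summed to 159 to 294.5 CPM in KP_PPARaDN, above every other tumor, with 3.09 to 43.3 in KP, 15.2 to 94.7 in KPG1 and 6.71 to 61.8 in KPG1_PPARaDN. Of the 5 mesothelial genes listed, 4 had a mean under 1 CPM. This sum thus rests mainly on the other gene and does not measure an amount of mesothelial cells. Fibroblast genes were at 267 to 529.9 CPM in KP_PPARaDN, beside 134 to 242 in KP, 85.5 to 355 in KPG1 and 129 to 185 in KPG1_PPARaDN. The part of the cells that express these genes in the vascular levels was not tested.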

How the data were processed

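RNA sequencing of the CD45-negative fraction of 12 tumors was analyzed from the deposited counts of reads per gene, which the authors made without normalization and which were equal in the 12 tumor files and the combined table. The submitters' processing notes name bcl2fastq 2.17, cutadapt 1.4.2, HISAT2, featureCounts 1.4.4, edgeR and build mm10. The authors also deposited log2 values, which are log2 CPM and were used only for a check. The labels gave group, replicate number and sex, and the mouse was read from the number that precedes the tumor there. Columns of per-sample values matching no sample numbered 0. GENCODE M21 (mm10), used for positions and exon lengths, held 96.4% of the gene identifiers and 99.7% of the counts.

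Differences were computed with edgeR 4.0.16 (TMM, filterByExpr, quasi-likelihood F-test) and R 4.3.3. All 12 tumors entered a single model of 4 group coefficients, with 8 residual degrees of freedom and Benjamini-Hochberg adjustment over 16527 genes at a threshold of 0.05. The biological coefficient of variation was 0.44, and standard errors were obtained by dividing the log2 fold change by √F. With 25263794 to 32654223 counts per tumor, the spread between tumors and not the depth set the precision, and 13548 of the 39017 genes listed had no count. Log2 CPM used a prior count of 2. Values and figures were computed with Python 3.11.15 (pandas 2.3.3, numpy 2.4.6). The fits were tested on simulated data.

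The members and all gene lists were chosen with earlier results of these data known. Values in every tumor are given for the 6 defining markers and, in each comparison of groups and each averaged comparison, for up to 3 members per direction with the largest fold change and a mean of at least 1 CPM. Alternatives were DESeq2 1.42.0, limma voom 3.58.1, other size factors (RLE, upper quartile), no filter or a mean of at least 1 CPM, a sex term, a block for the replicate number, only the groups compared, counts summed per mouse, and leaving out each tumor. The slope on *Cdh5* and *Cdh5* as a covariate were added after seeing the data. Strand of counting is not given in the sources used here. Exons of 6 members overlap those of another gene, by over 10% for *Ramp2* (33.4%, *Vps25*), *Nos3* (25.2%, *Gm15587*) and *Sox17* (16.8%, *Gm37587*), so their counts are less certain. RefSeq promoters were found for 17 of the 35 genes. Tumor growth, imaging and metabolic data of the study were not analyzed here.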

Additional observations from a re-analysis of the deposited data

How the results depend on the processing

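Each group had 3 tumors, some of the same mouse, and the members moved together, so they are not separate tests. Of 33 fold changes of named genes under the alternatives, 747 values in all, 723 kept their direction and their side of the threshold, 22 changed sign, 2 came to pass the threshold (*Prox1* with DESeq2) and 0 fell below it. The cause was not tested. No member was called under any alternative except *Prox1* with DESeq2, 1 member in each of the comparisons of KPG1_PPARaDN with KPG1 and with KP_PPARaDN and in the difference between genotypes. The genes called in KP_PPARaDN against KP (1 by edgeR) numbered 372 with DESeq2, 2 without the filter on low counts, and 0 with sex as a covariate, with the replicate block, with only the groups compared and with counts summed per mouse. In KPG1_PPARaDN against KPG1 (1 by edgeR) they numbered 197 with DESeq2, 2 with the replicate block, and 0 with limma voom, only the groups compared or mice summed. In KPG1 against KP (6 by edgeR) they numbered 53 with DESeq2, 3 at a mean of at least 1 CPM, 10 with only the groups compared, and 2 with sex as a covariate or mice summed. In KPG1_PPARaDN against KP_PPARaDN (5 by edgeR) they numbered 160 with DESeq2, 3 with the replicate block or with *Cdh5* as a covariate, and 2 with sex as a covariate or mice summed. For doxycycline against regular diet (3 by edgeR) they numbered 286 with DESeq2 and 5 without the filter, for Slc2a1 fl/fl against wt/wt (8 by edgeR) 39 with DESeq2, 5 with the replicate block and 3 with mice summed, and for the difference between genotypes (0 by edgeR) 286 with DESeq2. The replicate numbers did not pair the tumors: 2 of 18 same-numbered pairs deviated together with a correlation over 0.1 (range -0.19 to 0.13), and the replicate block changed no call of a member. *Prox1* changed sign with sex as a covariate, to 0.49 in KP_PPARaDN against KP and 0.49 in KPG1 against KP. With *Cdh5* as a covariate, signs changed for *Clec14a* (0.042), *Gpihbp1* (0.27) and *Ednrb* (0.31) in KPG1_PPARaDN against KP_PPARaDN and for *Gpihbp1* (0.015) averaged over diets, and *Aplnr* averaged over genotypes was at -0.16 with mice summed. Leaving out 1 tumor at a time moved the median of the members from -0.92 to 0.55 in KP_PPARaDN against KP, from -0.98 to -0.39 in KPG1_PPARaDN against KPG1, from -0.33 to 0.28 in KPG1 against KP, from -1.25 to 0.19 in KPG1_PPARaDN against KP_PPARaDN, from -0.78 to -0.08 for diet, from -0.65 to 0.07 for genotype and from -1.24 to 0.29 for the difference. The log2 ratio of the summed level moved from -0.74 to 0.58, from -0.93 to -0.42, from -0.18 to 0.35, from -1.16 to 0.16, from -0.70 to 0.08 and from -0.53 to 0.11 in the first 6 of these. The genes called ranged from 0 to 1, from 0 to 2, from 2 to 6, from 2 to 10 and from 2 to 13 in the first 5, the genes called for a slope on *Cdh5* from 1 to 126 and the members among them from 0 to 26. Named members that changed sign were *Clec14a* (-0.82 to 0.076 in KPG1 against KP, -1.91 to 0.44 in KPG1_PPARaDN against KP_PPARaDN, -1.14 to 0.028 for genotype), *Ednrb* (-1.75 to 0.63), *Gpihbp1* (-1.78 to 0.59, and -0.97 to 0.21 for genotype), *Aplnr* (-0.055 to 1.23, and -0.27 to 0.38 for diet), *Emcn* (-0.56 to 1.04), *Esam* (-0.044 to 0.50 for genotype) and *Flt1* (-0.013 to 0.71 for diet).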
